A study of Bos taurus with 15 samples.

Results

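The genes described here encode the nuclear-made subunits of the mitochondrial respiratory chain and of ATP synthase, measured in the thymus of cattle. They were the bovine probes whose gene name in the array files begins with NDUF, UQCR, SDHA, SDHB, SDHC, SDHD, ATP5 or COX4 to COX8, with COX6A2 left out. The rule found 67 genes, each with 1 probe printed as 2 spots, among 21475 bovine probes with 20602 distinct names. By role 33 were subunits of complex I, 4 of complex II, 4 of complex III, 11 of complex IV and 14 of complex V. NDUFA4 was counted with complex IV, of which it is a subunit. The remaining gene, ATP5S, is listed by RefSeq as DMAC2L and is not a structural subunit of the synthase.

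The 15 arrays came from 15 Holstein cows, with 1 animal per array, and the thymus was taken at slaughter. The 7 control animals were untreated, and 8 animals had received 30 mg of prednisolone per head each day for 35 days, taken by mouth; prednisolone is a synthetic glucocorticoid. The labels give the breed and tissue, which all animals share, but neither age nor housing. The comparison asks whether the level of each transcript differed between treated and untreated cows.

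The respiratory chain sits in the inner mitochondrial membrane. Complex I (NADH dehydrogenase) and complex II (succinate dehydrogenase) pass electrons to coenzyme Q, complex III passes them on to cytochrome c, and complex IV (cytochrome c oxidase) passes them to oxygen. Complexes I, III and IV pump protons, and ATP synthase, also called complex V, uses the proton gradient to make ATP. In the thymus, glucocorticoids drive immature T cells into a form of cell death that runs through the mitochondrion.

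The samples looked like thymus: all 9 thymocyte marker probes on the array, among them CD3E, RAG1 and PTCRA, were well above background on every array, as were 8 of 9 thymic epithelial probes. The summed thymocyte signal lay between 7.64 and 7.97 (log2, relative to the 75th percentile of the array) in control animals and between 7.70 and 7.99 in treated animals. The summed skeletal muscle signal varied far more, from 1.16 to 3.84 in control and from 0.22 to 3.86 in treated animals. Some animals also gave signal for transcripts of other organs. The liver transcript ALB was 0.96 in prednisolone animal 4, -1.01 in prednisolone animal 3 and -6.81 or lower in the rest. APOA1, the other liver transcript looked at, did not follow ALB. It ranged from -0.49 to 1.20 in control and from -0.76 to 1.37 in treated animals. In prednisolone animals 4 and 3 it was 1.07 and -0.62. PRM1, a testis transcript, ranged from -5.51 to 4.37 in control and from -4.93 to 1.57 in treated animals. The source of these signals was not tested. In bulk tissue, fewer cells of a type and less RNA per cell cannot be told apart. The share of bovine spots well above background was 67.1% to 77.7% per array, and precision is limited by the number of arrays. The arrays lay on 4 slides. Controls 1, 2 and 5 shared slide 1 with treated animal 6, control 3 shared slide 2 with treated animals 3, 5 and 8, and controls 4, 6 and 7 shared slide 3 with treated animal 1. Treated animals 2, 4 and 7 lay alone on slide 4, which had 840 to 1050 outlier spots per array, against 5 to 17 on the other arrays. Many values below are therefore also given from a fit with a slide term, or leaving slide 4 out.

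Transcripts of the respiratory chain and the synthase were present in every thymus. Of the 67 probes 66 were well above background on all 15 arrays, and NDUFB9 was so on the 13 arrays that gave it a value. All 67 therefore entered the test with 16067 kept probes. None of the 67 passed the test between prednisolone and control in either direction (limma, p under 0.05 after Benjamini-Hochberg adjustment over the kept probes), and of all kept probes 0 passed as well (0%). The lowest limma adjusted p among the members was 0.464, for NDUFA7, and that of any kept probe was 0.236. Without adjustment, 5 members (7.46%) had a p under 0.05, against 7.08% of all kept probes. NDUFA7, UQCR, ATP5E and ATP5I were the 4 members lower at that level (5.97%), against 3.1% of kept probes, and ATP5F1 was the 1 member higher (1.49%), against 3.98%. The difference between these shares was not tested.

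In the reported fit, which has no slide term, most estimates were narrow enough to bound the differences. For 64 of the 67 members the 95% interval of the difference lay within 1.5-fold in either direction, against 72.1% of all kept probes. The 3 exceptions were ATP5F1, NDUFS8 and UQCRC2, which are described with their complexes. The count was made in this setting only, and estimates moved in others. With slide as a block COX6B2 gave -0.38 ± 0.14 (SE), and with normexp the median of the members was 0.060 rather than -0.037. The median standard error was 0.082 on the log2 scale for members and 0.13 for all kept probes. The median SD over the 15 arrays was 0.15 for members and 0.26 for all kept probes. Both are descriptions, and the difference in spread was not tested.

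**Figure D1:**
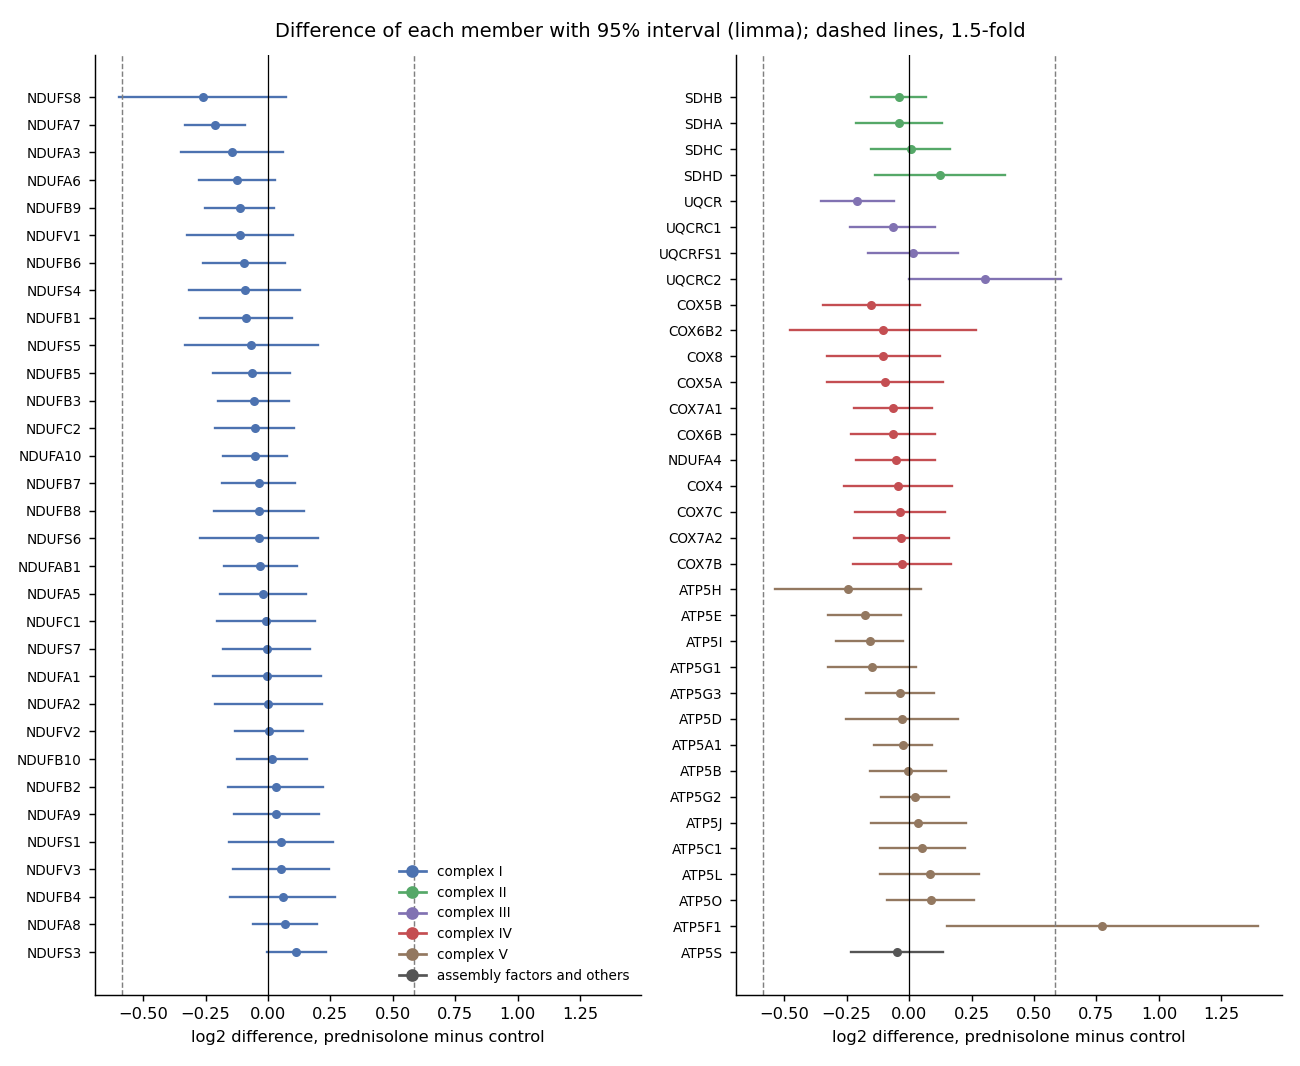
The log2 difference (prednisolone minus control) of 66 of the 67 genes is drawn as a point with its 95% interval from limma, complex I on the left and the other complexes on the right, coloured by complex. Dashed lines mark 1.5-fold in either direction, and the drawn intervals lie between them except those of ATP5F1, NDUFS8 and UQCRC2. All 11 complex IV genes lie left of 0, whereas with normexp background correction 5 of 11 do, and ATP5F1 stands farthest to the right.

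Small differences to the lower side outnumbered those to the higher side, but their direction changed in the setting with normexp background correction. That setting starts from the raw spot signal, adds an offset of 50 and leaves out the detrending within the array. Which of these steps moved the direction was not tested. With prednisolone 47 members were lower and 20 higher, a share of 70.1% lower against 50.1% of all kept probes, while with normexp background correction only 18 of the 67 were lower. The median difference of the members was -0.037, against -0.0004 for all kept probes. Under normexp the median of all kept probes moved to -0.21 and that of the members to 0.060, so that the members lay 0.27 above the array. With the reported scaling they lay at -0.037 from it. With slide as a fixed block 49 members were lower, with a median of -0.061. Within slides 1, 2 and 3, each with a single animal on 1 side, the median was -0.0015, -0.096 and -0.071.

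In complex I, which takes electrons from NADH and has the most subunits of the chain, 23 of 33 genes were lower and 10 higher, with a median of -0.035. A slide block gave a median of -0.062, and leaving out slide 4 gave -0.098. With normexp 8 of 33 were lower. The 7 core subunits, which carry the flavin and iron-sulfur clusters and are conserved from bacteria, split into 4 lower and 3 higher, with a median of -0.0054. The 26 supernumerary subunits, which surround the core, had 19 lower and 7 higher, with a median of -0.036, or -0.072 with a slide block and -0.11 without slide 4.

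NDUFA7, a supernumerary subunit, had the smallest p of all members. Its level (log2 relative to the array's 75th percentile, as for all levels here) was lowest at 3.33, with a median of 3.47 and a highest value of 3.58 in the 7 control animals. In the 8 treated animals it was lowest at 3.18, with a median of 3.26 and a highest value of 3.42. Of the treated animals 7 lay below the lowest control, and prednisolone animal 1, at 3.42, lay within the control range, so the groups overlapped. Among all kept probes 0.118% had groups that did not overlap, and no member did. The group means were 3.47 ± 0.079 (SD, n = 7) and 3.26 ± 0.073 (SD, n = 8). The difference was -0.21 ± 0.057 (SE), with a 95% interval from -0.33 to -0.09 and a limma adjusted p of 0.464, so it did not pass. Within slides 1, 2 and 3 it was -0.23, -0.21 and -0.083, and a block for slide gave -0.17.

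NDUFS3, a core subunit of the arm that faces the matrix, lay on the other side. Control animals ranged from 2.91 through a median of 2.95 to 3.09, and treated animals from 2.99 through 3.09 to 3.24. Of the treated animals 4 were above the highest control. The difference was 0.11 ± 0.055 (SE; limma adjusted p = 0.701), and its interval ran from -0.0034 to 0.23. Without slide 4 it was 0.079. With flagged spots included, the first spot of NDUFS3 alone gave 0.099 and the second alone -0.038, so the sign depended on the spot. Without slide 4 the spots gave 0.065 and 0.092. NDUFB9, a supernumerary subunit of the membrane arm, ranged from 0.51 to 0.67 in control animals and from 0.41 to 0.68 in the 6 treated animals with a value. Both of its spots were marked as outliers on the arrays of prednisolone animals 4 and 7, so these were left out of its fit. Its difference was -0.11 ± 0.064 (SE; limma adjusted p = 0.742), or -0.043 with slide as a block.

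NDUFS8, a core subunit that holds iron-sulfur clusters, varied the most within complex I. Control animals ranged from 2.69 through a median of 3.34 to 3.69, and treated animals from 2.68 through 2.99 to 3.37. The ranges overlapped over most of their length. The difference was -0.26 ± 0.16 (SE; limma adjusted p = 0.755), with an interval from -0.59 to 0.073. Its mean was 3.46 on slide 1, 3.26 on slide 2, 2.86 on slide 3 and 2.76 on slide 4, and the difference without slide 4 was -0.13. Among other core subunits the difference was -0.11 for NDUFV1, which binds NADH, -0.0054 for NDUFS7, 0.0036 for NDUFV2 and 0.052 for NDUFS1. With slide as a block these were -0.0089, 0.13, -0.023 and -0.0027.

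Complex II, which links the citric acid cycle to the chain, had differences near 0 in all 4 genes, with a median of -0.017, or 0.0048 with median centring. SDHA, the flavoprotein that oxidises succinate, ranged from 3.89 to 4.11 in control and from 3.63 to 4.12 in treated animals. Its difference was -0.040 ± 0.082 (SE; limma adjusted p = 0.948). SDHB, the iron-sulfur subunit, had the narrowest interval of all members. It ranged from 3.95 through 3.99 to 4.04 in control and from 3.87 through 3.98 to 4.05 in treated animals, a difference of -0.042 with an interval from -0.15 to 0.068. The membrane anchors SDHC and SDHD gave 0.0058 ± 0.074 and 0.12 ± 0.12 (SE). SDHD was highest on slide 4, with a mean of 0.62 against 0.26, 0.29 and 0.078 on slides 1 to 3, and without slide 4 its difference was -0.042. All 4 genes changed sign under some settings: SDHA and SDHB were higher, not lower, with normexp, and SDHC was lower with quantile normalization, at -0.0057.

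In complex III, which oxidises coenzyme Q, 2 genes found by the name rule were lower and 2 higher. Their median was -0.024, or 0.16 with normexp. Complex III genes outside the rule were mostly lower. UQCR10 gave -0.065, UQCRH -0.018, UQCRQ -0.094 and CYC1 -0.086, while CYTB, encoded in mitochondrial DNA, gave 0.012. UQCR, listed by RefSeq as UQCR11, is a small accessory subunit. Its control animals ranged from 2.28 through a median of 2.38 to 2.53, and its treated animals from 1.98 through 2.20 to 2.38. As for NDUFA7, 7 of 8 treated animals lay below the lowest control, and the exception was again prednisolone animal 1. The difference was -0.21 ± 0.069 (SE; limma adjusted p = 0.644), with an interval from -0.35 to -0.059. Within slides 1, 2 and 3 it was -0.16, -0.22 and 0.013, and with slide as a block -0.12. UQCRC1, a core protein on the matrix side, gave -0.065 ± 0.080, or 0.15 with normexp, and UQCRFS1, the Rieske iron-sulfur protein, gave 0.017 ± 0.085 (SE). A slide block gave 0.094 and 0.13.

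UQCRC2, the partner of UQCRC1, gave the second largest difference in the higher direction, and it followed slide 4. Control animals ranged from 0.24 through a median of 0.58 to 0.81, and treated animals from 0.22 through 0.86 to 1.26. The 3 treated animals of slide 4 were the highest of all 15, up to 1.26. The difference was 0.30 ± 0.14 (SE; limma adjusted p = 0.700), with an interval from -0.00035 to 0.61. Leaving out slide 4 gave 0.11 and a slide block -0.0067.

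The 2 spots of the UQCRC2 probe also disagreed by slide. The second spot read above the first by 0.18 to 1.45 on every array of slides 1 to 3, and by -0.11 to 0.043 on slide 4. The first spot alone gave a difference between groups of 0.47 and the second alone 0.14. NDUFS5, a supernumerary subunit of complex I, had the same arrangement, with 0.28 to 1.14 on slides 1 to 3 and -0.056 to -0.0059 on slide 4. Its difference was -0.067 ± 0.13 (SE; limma adjusted p = 0.943), or -0.34 with slide as a block and 0.051 with normexp. The median spot difference over the members was 0.077, and 5 members exceeded 0.2. These are medians over arrays, and some members disagreed mainly on slide 4. The second spot minus the first was -0.48 to -0.43 there for NDUFS3, against -0.0995 to 0.028 on slides 1 to 3. For NDUFA3 it was 0.36 to 0.49, against -0.13 to 0.090. Why these spots differ was not tested.

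**Figure D2:**
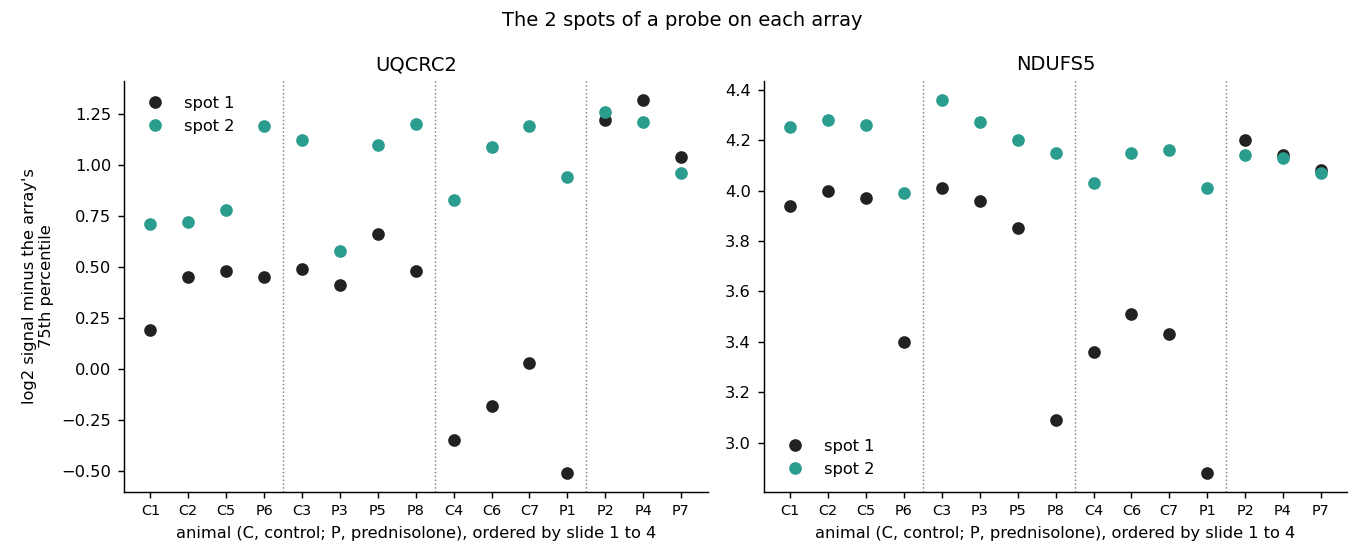
The log2 signal relative to the array's 75th percentile of the first (black) and second (green) spot of the UQCRC2 and NDUFS5 probes is drawn for each of the 15 animals, ordered by slide, with dotted lines between slides. On slides 1 to 3 the second spot lies above the first on every array, and on the 3 arrays of slide 4 the spots lie within 0.11 of each other.

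In complex IV all 11 genes found by the name rule were lower with prednisolone under the reported scaling. They ran from -0.15 to -0.030 with a median of -0.064, but with normexp 5 of 11 were lower and the median was 0.0030. Cytochrome c oxidase genes outside the rule lay on both sides of 0. COX1, COX2 and COX3, encoded in mitochondrial DNA, gave 0.49, 0.017 and 0.033, or 0.11, -0.049 and -0.14 with a slide block. Under other names in the array, COX4I2 and COX7A2L gave 0.014 and 0.027, and COX6C and COX8B gave -0.082 and -0.073. With slide as a fixed or random block, and without slide 4, 9 of 11 were lower. Leaving out prednisolone animal 1 left 8 of 11 lower, leaving out control 5 left 9 and leaving out prednisolone animal 2 left 10. None of the 11 passed, and none reached an unadjusted p under 0.05. Each animal's mean over the 11 genes ranged from 2.66 to 2.86 in control and from 2.53 to 2.79 in treated animals, so the groups overlapped.

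COX5B, a peripheral subunit that binds zinc, had the lowest difference. Control animals ranged from 2.31 through a median of 2.39 to 2.60, and treated animals from 1.99 through 2.29 to 2.61. The treated animals of slide 4 had 3 of the 4 lowest values, at 2.10, 2.07 and 1.99, and prednisolone animal 1 had the other, at 2.24. The difference was -0.15 ± 0.092 (SE; limma adjusted p = 0.766), and a slide block gave -0.022 and leaving out slide 4 -0.019. COX8 was likewise lowest on slide 4, with a mean of 3.28 against 3.65 to 3.73 on slides 1 to 3. Its difference was -0.10 ± 0.11 (SE; limma adjusted p = 0.877), and 0.063 without slide 4. The array file describes COX8 as the heart form, while RefSeq lists its accession as COX8A, so which form it reports is uncertain.

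Several subunits of complex IV come in forms made in different tissues. COX7A1, the form of heart and skeletal muscle, ranged from 1.26 to 1.64 in control and from 1.17 to 1.51 in treated animals. Its difference was -0.064 ± 0.073 (SE; limma adjusted p = 0.895), and that of COX7A2, the form of most tissues, was -0.030 ± 0.088, or -0.17 with slide as a block. The highest COX7A1 value was that of control 2, with a summed muscle signal of 1.16, and the lowest that of prednisolone animal 7, with 3.16. The part of muscle in COX7A1 was not tested. COX6B2, the testis form, ranged from 0.90 through a median of 1.49 to 1.83 in control and from 0.41 through 1.38 to 1.65 in treated animals. Its lowest value by far belonged to prednisolone animal 1, and without that animal the difference of -0.10 ± 0.18 (SE; limma adjusted p = 0.935) became 0.022. With slide as a block it was -0.38 (limma adjusted p = 0.444), and without slide 4 it was -0.24. The testis transcript PRM1, a sperm protamine, was high in control 1 (3.21), control 4 (4.37), control 6 (1.21) and prednisolone animal 8 (1.57). COX6B2 was 1.83, 1.49, 1.04 and 1.22 in the same animals, and the part of testis transcripts in it was not tested. The general forms gave -0.064 for COX6B, listed by RefSeq as COX6B1, -0.043 for COX4, listed as COX4I1, and -0.030 for COX7B. With slide as a block they were -0.034, 0.067 and -0.12. With normexp COX7A2, COX7B and COX8 were higher, not lower, and without slide 4 COX4 was. Among forms that the array lists under other names, COX4I2, the form known from lung, gave 0.014 ± 0.16, or -0.76 with normexp, COX8B, the form of heart and muscle, -0.073 ± 0.091, and NDUFA4L2 -0.063 ± 0.12 (SE). The COX4I2 probe was dim, with a control mean of -5.51.

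In complex V, ATP synthase, 8 of 14 genes were lower and 6 higher, with a median of -0.014, and with normexp 3 of 14 were lower. The median changed sign with median centring (0.0077, 7 of 14 lower), without control 4 (0.0067) and without prednisolone animals 2 (0.0035), 6 (0.0015) or 8 (0.0060). The 5 subunits of the catalytic F1 head gave 4 lower and 1 higher. ATP5A1 and ATP5B, which form the head's catalytic ring, gave -0.025 ± 0.055 and -0.0034 ± 0.071 (SE). For ATP5B the interval ran from -0.15 to 0.15.

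ATP5E, the epsilon subunit of the central stalk, ranged from 4.27 through a median of 4.48 to 4.69 in control and from 4.24 through 4.34 to 4.42 in treated animals. The treated animals sat in the lower part of the control range, and 3 lay below the lowest control. The difference was -0.18 ± 0.069 (SE; limma adjusted p = 0.655), and -0.22 with slide as a block. ATP5I, subunit e of the membrane part, which helps synthase dimers form, ranged from 5.43 through 5.49 to 5.60 in control and from 5.21 through 5.36 to 5.53 in treated animals. Of the treated animals 6 lay below the lowest control, and prednisolone animals 2 and 4, both of slide 4, did not. The difference was -0.16 ± 0.063 (SE; limma adjusted p = 0.667), and -0.22 without slide 4. Both genes were higher, not lower, with normexp, at 0.083 and 0.027.

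ATP5F1, subunit b of the peripheral stalk, had both the largest difference and the largest SD over the arrays (0.71) of all members. Control animals ranged from -3.54 through a median of -2.45 to -1.89, and treated animals from -2.84 through -1.77 to -1.08. The 3 treated animals of slide 4 were the highest, at -1.08, -1.28 and -1.46, and 4 treated animals lay above the highest control. The group means were -2.60 ± 0.62 (SD, n = 7) and -1.82 ± 0.59 (SD, n = 8). The difference was 0.77 ± 0.29 (SE), with an interval from 0.15 to 1.40 and a limma adjusted p of 0.655. Without slide 4 it was 0.44, with a block for slide 0.66, and within slides 1, 2 and 3 it was 0.93, 0.45 and 0.58. ATP5H, subunit d of the same stalk, lay the other way, at -0.24 ± 0.14 (SE; limma adjusted p = 0.742), with control animals from -1.85 to -1.48 and treated animals from -2.60 to -1.51. Its lowest value was that of prednisolone animal 4. ATP5S gave -0.047 ± 0.086 (SE; limma adjusted p = 0.941), or -0.12 with slide as a block.

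**Figure D3:**
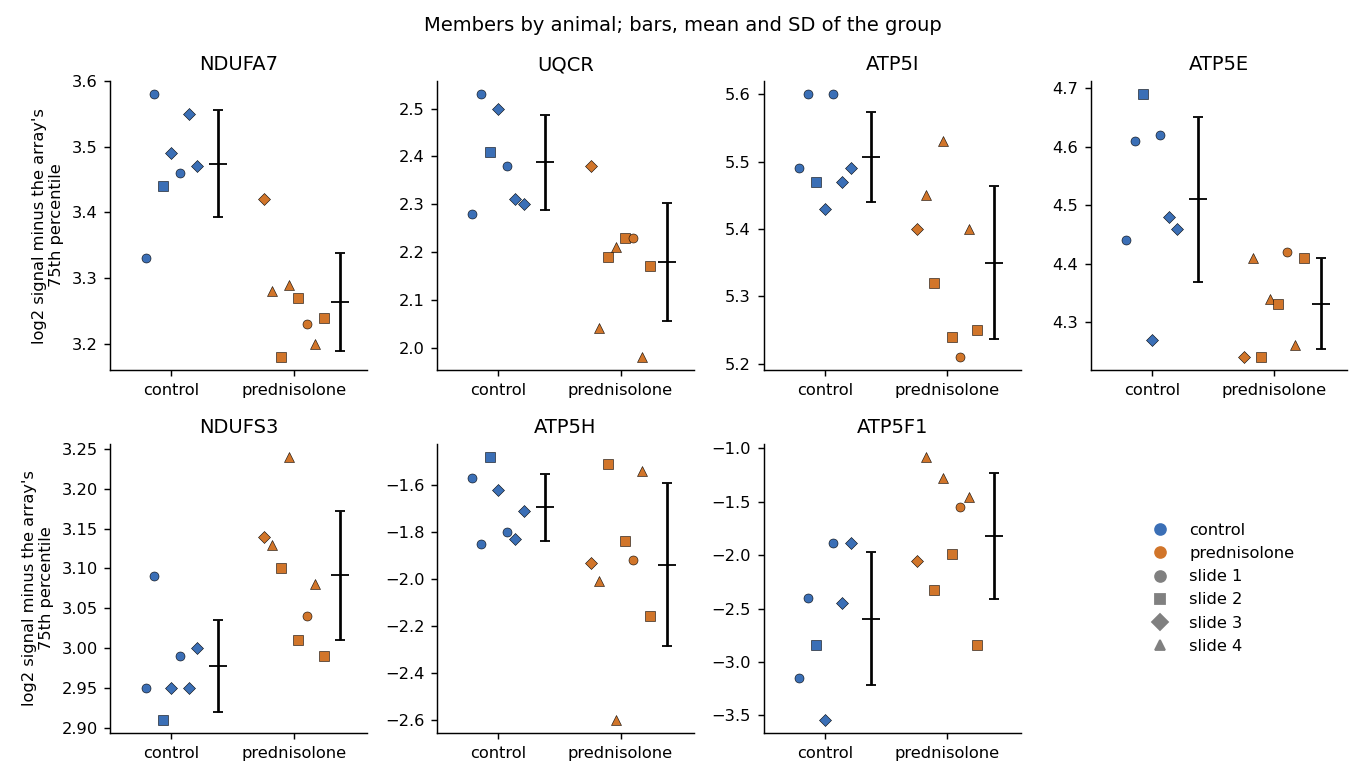
Each point is 1 animal's log2 signal relative to its array's 75th percentile, for 7 genes, with control animals in blue and treated animals in orange and the slide shown by the marker. Bars give the mean and SD of each group (n = 7 and n = 8). In NDUFA7 and UQCR 7 of 8 treated animals lie below all controls, and in ATP5F1 the 3 triangles of slide 4 are the highest points.

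Some members differed between slides. In the fit with treatment and slide, 10 of the 67 members differed between slides (limma F test, adjusted p under 0.05), against 30.6% of all kept probes. They were NDUFS8, NDUFS5 and NDUFB8 of complex I, SDHD of complex II, UQCRC2 of complex III, and COX5B, COX6B2, COX8, COX7A2 and NDUFA4 of complex IV, with none in complex V. The smallest limma adjusted p was 0.0023, for NDUFS8. On slide 4 NDUFS5, SDHD, UQCRC2, COX7A2, NDUFA4 and NDUFB8 had their highest slide mean, and NDUFS8, COX5B and COX8 their lowest. The count was 32 with median centring and 1 with normexp, where the share of all kept probes was 41.9% and 0.897%. Slide 4 holds no control animal, so for its 3 arrays slide and treatment cannot be told apart.

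**Figure D4:**
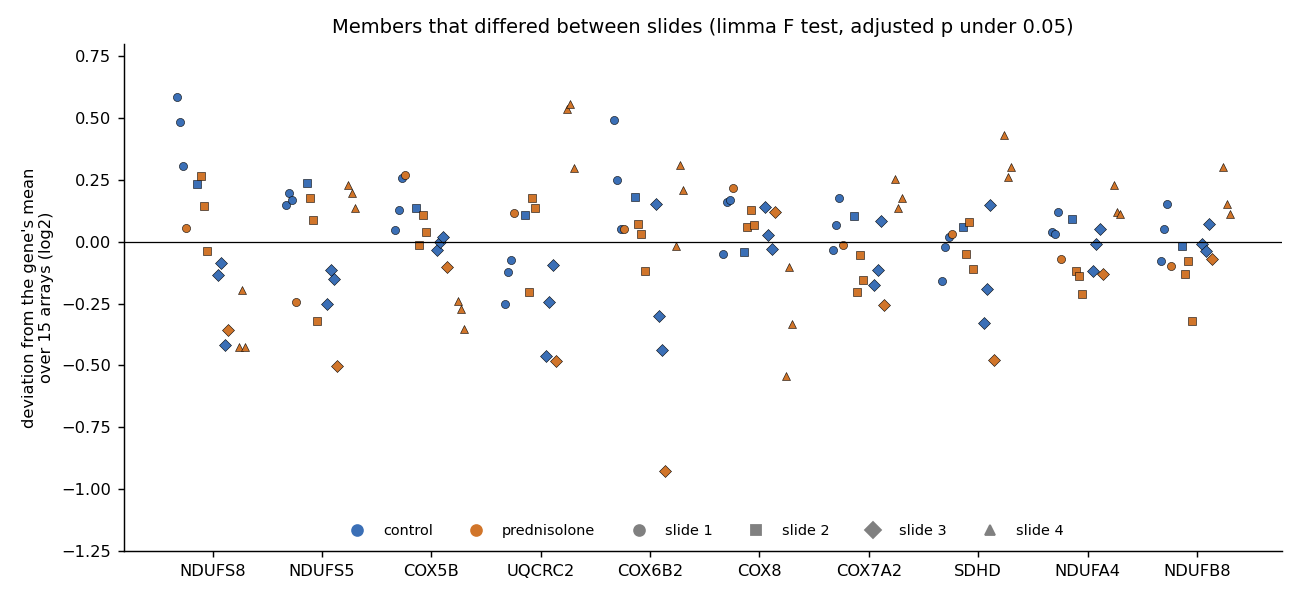
For the 10 genes that differed between slides, each point is 1 array's deviation (log2) from the gene's mean over the 15 arrays, set side by side by slide, with blue for control and orange for treated animals. The triangles of slide 4 lie above 0 for UQCRC2, SDHD and NDUFA4 and below 0 for NDUFS8, COX5B and COX8.

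Animals also differed over the members as a whole. In control 5, 52 of 67 members (77.6%) were above their own mean over the 15 arrays, against 58.0% of all kept probes. In prednisolone animal 4, of slide 4, this held for 48 members (71.6%), against 46.9% of all kept probes. In prednisolone animal 8 it held for only 16 members (23.9%), while 59.7% of all kept probes were above their mean there. The mean deviation of the members was -0.089 in that animal and 0.074 in control 5. Complex IV had its lowest mean deviation, -0.18, in prednisolone animal 1, which also had the highest summed adipocyte signal (4.20) and the lowest summed muscle signal (0.22). The part of other cell types in these values was not tested. Over all members the mean level was 2.42 ± 0.045 (SD, n = 7) in control and 2.40 ± 0.064 (SD, n = 8) in treated animals.

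**Figure D5:**
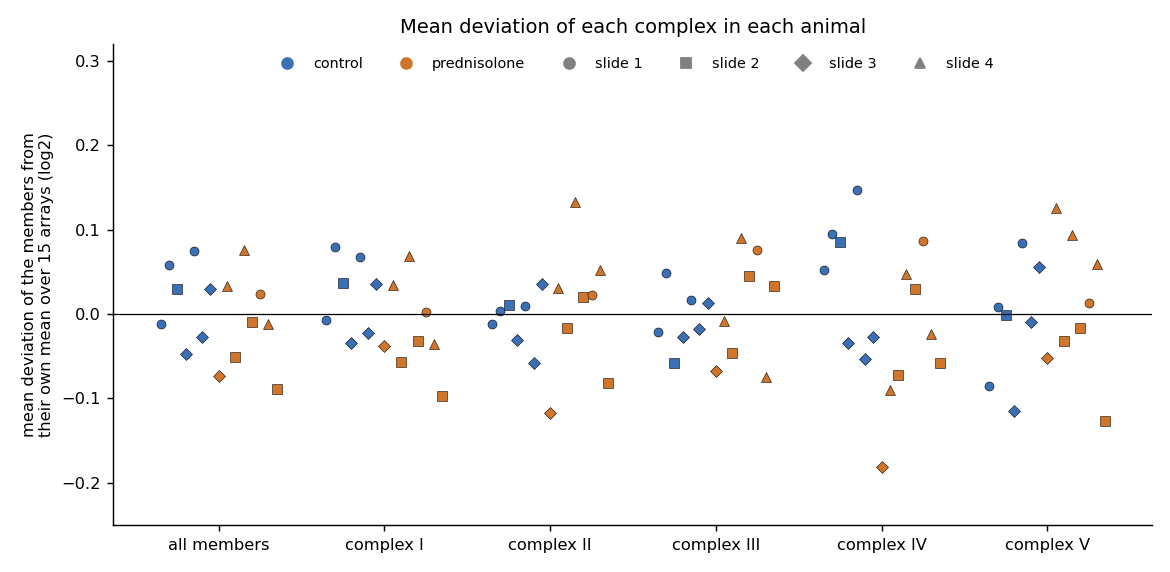
The mean deviation (log2) of the members of each complex from their own means over the 15 arrays is drawn for each animal, in blue for control and orange for treated animals, with the slide shown by the marker. Control and treated animals overlap in every complex. Prednisolone animal 1 has the lowest complex IV value, at -0.18.

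Genes outside the rule came from 6 lists, of the chain itself and of the pathways that build, regulate or feed it. They gave 0 genes that passed of 84 kept, with 43 higher and 41 lower and a median of 0.0071. Of these, 3 (3.57%) had an unadjusted p under 0.05, against 7.08% of all kept probes. The 13 subunits encoded in mitochondrial DNA split into 7 higher and 6 lower. COX1, the catalytic core of complex IV, ranged from 5.91 through a median of 6.10 to 6.53 in control and from 5.83 through 6.62 to 7.25 in treated animals. Its difference of 0.49 ± 0.17 (SE; limma adjusted p = 0.655) was 0.11 with slide as a block, and its mean was 7.05 on slide 4 against 5.95 to 6.48 on the others. ND6, a membrane subunit of complex I, gave -0.45 ± 0.22 (SE; limma adjusted p = 0.701), or -0.19 without slide 4, and its slide means ran from -1.33 on slide 1 to -2.41 on slide 4.

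Genes that build or feed the chain lay on both sides of 0. Assembly factors gave 12 higher and 12 lower of 24, with ATPAF1, which assembles the F1 head, at 0.26 ± 0.13 and BCS1L, which inserts the Rieske protein into complex III, at -0.12 ± 0.068 (SE). A slide block gave 0.056 and -0.068. Without slide 4 ATPAF1 gave 0.097, and its mean was -0.60 on slide 4 against -1.16 to -1.02 on the others. Regulators of mitochondrial biogenesis gave 9 higher and 7 lower of 16, with POLG2, an accessory subunit of the mitochondrial DNA polymerase, at 0.15 ± 0.076 and SIRT3, a mitochondrial deacetylase, at -0.19 ± 0.11 (SE), or 0.088 and -0.086 with a slide block. Citric acid cycle genes gave 7 higher and 9 lower of 16, with IDH3B at -0.11 ± 0.088, or -0.074 with a slide block, and DLST at 0.18 ± 0.15 (SE), or -0.73 with normexp. The DLST probe was dim, with a control mean of -5.32, and was well above background on 5 of 7 control arrays. Among 6 carriers and pores, 4 were higher and 2 lower. SLC25A4, an exchanger of ADP and ATP, gave 0.24 ± 0.087 (SE; limma adjusted p = 0.655), 0.062 with slide as a block and -0.14 with normexp, and SLC25A6, another exchanger, 0.077 ± 0.082, or 0.012 with a slide block. Coenzyme Q genes gave 3 higher and 4 lower of 7, with COQ4 at -0.29 ± 0.13 (SE; limma adjusted p = 0.700), or -0.088 with slide as a block, and COQ5 at -0.13 ± 0.10, or 0.027 with the block. The 20 kept probes for subunits and factors that the array lists under other names gave 7 higher and 13 lower, with a median of -0.048, and 0 passed. Of these, 2 are also counted among the assembly factors, ATP5IF1 (as ATPIF1) and ATP5MK (as USMG5).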

How the data were processed

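Thymus RNA of 15 cows was hybridised with 1 dye to Agilent bovine arrays. Samples were grouped by their treatment characteristic, each animal is 1 replicate, and replicate numbers only name the animals. Scanner files give each spot's intensity, background-subtracted, detrended within the array and written with 3 significant digits by Feature Extraction (9.5.1.1), as stated per the file headers. Other columns used are spot flags and the signal before rounding, per the file headers. A second file of intensity values, as deposited by the authors, has 44396 rows and was matched on spot number. Set against each array's processed signal it gave rank correlations of 0.99963 or more, with column medians of 188.5 to 274.1. It is linear and runs the same way as the signal, but any centring is not known. R 2.11.1 is named in the submitters' processing notes.

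Values are log2 of the processed signal minus that array's 75th percentile over bovine spots. Outlier spots were left out, which removed 19 member values of single spots, and the 2 spots of a probe were averaged. A probe was kept if 7 or more of the 15 arrays had it well above background. The comparison used limma 3.58.1 (R 4.3.3, statmod 1.5.0, version 1.17.8 of data.table) over all kept probes, with Benjamini-Hochberg adjustment, and the calculation was tested on simulated data. Slides came from the array identifiers in the files. All arrays were scanned on 1 day. Gene names are those of the array, and 19 of the 67 differ from the current RefSeq symbol of the same accession or gene number (assembly ARS-UCD2.0). The files name no genome build, so no coordinates are given.

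Genes named are the 3 members of each complex with the smallest limma p (all 4 of complex II), tissue forms of subunits, the 5 members with the largest SD, the 5 with the smallest slide p, and the 2 of each pathway list with the smallest p. 1 member counts in every summary but is not reported here by itself. Other members are named where a count or a comparison needs them, chosen after their values were seen. The members and lists were chosen with earlier results of these data known. Alternatives covered scaling (quantile, median), normexp background correction (offset 50), the deposited table, stricter and no filters, keeping outlier spots, slide (fixed block, random block, slide 4 left out), the variance model (trend and robust), and leaving out each animal.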

Additional observations from a re-analysis of the deposited data

Results flagged for a closer look

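The values of the named genes, and the means of all members and of each complex, were checked for 1 animal far from the rest. Of 92 groups of values checked, 6 had one, and chance gives about 1 in 20. COX4, a regulatory subunit of complex IV, was low in control 7, at 4.94 against 5.09 in the next control, and low in prednisolone animal 2, at 4.46 against 4.96 in the next treated animal. COX6B2 was low in prednisolone animal 1, at 0.41 against 1.22 in the next. NDUFA7 was high in the same animal, at 3.42 against 3.29 in the next, where the other 7 treated animals lay below all controls. NDUFB9 was low in control 3, at 0.51 against 0.62 in the next, and SIRT3 was low in prednisolone animal 7, at -0.37 against -0.01 in the next. The causes were not tested.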

How the results depend on the processing

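No member and no pathway gene passed in any setting run, and no named gene did. Among all kept probes 1 passed with quantile normalization and 3 without prednisolone animal 1, and 0 in every other setting. The lowest limma adjusted p of a member across settings was 0.236, with normexp. The median difference of all members stayed between -0.054 and -0.026 when each animal was left out, and that of complex IV between -0.079 and -0.042. With normexp the medians were 0.060 for all members, 0.052 for complex I, 0.099 for complex II, 0.16 for complex III and 0.090 for complex V. Complex III gave 0.044 with slide as a fixed block, 0.052 with a random block and 0.046 without slide 4, where complex I gave -0.098. With median centring complex II gave 0.0048 and complex V 0.0077. The number of members that differed between slides was 32 with median centring (41.9% of all probes), 1 with normexp (0.897%) and 1 among the prednisolone arrays only (11.5%), against 10 as reported (30.6%). The cause was not tested.

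Some single genes changed sign. With normexp SDHB gave 0.029, SDHA 0.14, UQCRC1 0.15, COX8 0.058, ATP5E 0.083, ATP5I 0.027, COX7A2 0.083, COX7B 0.15, NDUFS5 0.051, DLST -0.73, SLC25A4 -0.14 and COX4I2 -0.76. The probes of DLST and COX4I2 were dim, with control means of -5.32 and -5.51 in the reported setting. With slide as a fixed block SDHD gave -0.12, SDHA 0.080, SDHC -0.091, UQCRC2 -0.0067, UQCRC1 0.094, COX8 0.11, COX4 0.067, COQ5 0.027 and COX4I2 -0.11. With a random block SDHD gave -0.011, SDHA 0.024, SDHC -0.046, UQCRC1 0.022, COX8 0.0099, COX4 0.015 and COX4I2 -0.058. Without slide 4 SDHD gave -0.042, SDHA 0.069, SDHC -0.090, UQCRC1 0.034, COX8 0.063 and COX4 0.081. SDHC gave -0.0057 with quantile normalization and -0.0093 with the authors' values. When animals were left out in turn, the genes that changed sign ranged from -0.062 to 0.0074 (SDHA), -0.028 to 0.024 (SDHC), -0.070 to 0.041 (COX4), -0.19 to 0.022 (COX6B2), -0.069 to 0.0033 (COX7A2), -0.065 to 0.016 (COX7B), -0.081 to 0.10 (COX4I2) and -0.14 to 0.0074 (NDUFA4L2).

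No paired analysis was possible because the labels give the groups no shared replicate numbers. The signal before rounding and the subunits listed under other names were tried after the data were seen and moved no median by as much as the spread between animals. Averaging all probes of a gene was not run for members, which have 1 probe each, and promoter motifs were not analysed here.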
